A study of Mus musculus with 5 samples.

Results

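Goblet cells of the mouse ileum were taken as the cells in which 7 mucus genes made up at least 1% of all UMIs (unique molecular identifiers, 1 per captured RNA molecule). The genes were Muc2, Tff3, Fcgbp, Clca1, Zg16, Agr2 and Spink4, and at least 4 of the 7 had to be detected. A goblet cell also had to hold Lyz1 and the 13 measured Defa genes, which mark Paneth cells, at less than 10% of its UMIs. The cells were therefore chosen by the measured levels of these genes, which are given below as a description without a test. Cells entered if 500 or more genes were detected and mitochondrial genes made up no more than 20% of their UMIs. Of 18955 such cells, 746 met the rule, or 3.94%. The 5 libraries held 49, 221 and 110 goblet cells after sham surgery (sham 1 to 3) and 78 and 288 after small bowel resection (resection 1 and 2).

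Goblet cells are secretory cells of the intestinal epithelium that build and release the mucus layer. Muc2 encodes the gel-forming mucin, a protein that is folded in the endoplasmic reticulum, covered with O-linked sugars in the Golgi and packed into granules, so the cells also depend on chaperones, glycosyltransferases and fluid secretion. Atoh1 sends crypt progenitors into the secretory lineage, and Spdef and Foxa3 are transcription factors of the goblet branch.

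The mice were C57BL/6, aged 8 to 12 weeks, and the epithelial cells came from the distal small intestine. Both groups had an operation: resection removes a length of small bowel, and sham surgery does not. The length removed, the time between surgery and cell isolation, and how many animals entered a library are not given in the sources used here. The p-values over libraries therefore measure the spread between libraries, which may be technical.

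Promoter sequences of goblet genes are shown because the letters CAGCTG are a known form of the E-box that Atoh1 binds. The genes of the rule are high together in these cells because the rule chose the cells by them, so this is not a result. The 250 bases before the transcription start were read from RefSeq on GRCm38.p6, and 3 of the 7 genes of the rule and 12 of 15 other leading goblet genes had an entry. CAGCTG, which reads the same on both strands, was in the window of 2 of those 3 genes (Muc2 and Fcgbp) and of 1 of the 12 (Hepacam2). Across all 32851 promoter windows of this length it was in 13.0%. The windows are Muc2 at chr7:141690090-141690339 on the plus strand, Fcgbp at chr7:28070986-28071235 on the plus strand and Hepacam2 at chr6:3494499-3494748 on the minus strand, each written 5′ to 3′ with CAGCTG in capitals.
Muc2: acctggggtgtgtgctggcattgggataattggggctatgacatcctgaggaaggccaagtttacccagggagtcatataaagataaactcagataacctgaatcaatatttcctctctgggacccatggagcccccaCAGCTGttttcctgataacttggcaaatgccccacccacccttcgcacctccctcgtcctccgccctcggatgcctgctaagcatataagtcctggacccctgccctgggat
Fcgbp: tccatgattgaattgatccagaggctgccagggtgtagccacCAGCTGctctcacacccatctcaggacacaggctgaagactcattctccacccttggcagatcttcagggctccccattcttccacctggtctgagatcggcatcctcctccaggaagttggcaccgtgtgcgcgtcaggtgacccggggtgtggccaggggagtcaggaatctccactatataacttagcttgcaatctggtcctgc
Hepacam2: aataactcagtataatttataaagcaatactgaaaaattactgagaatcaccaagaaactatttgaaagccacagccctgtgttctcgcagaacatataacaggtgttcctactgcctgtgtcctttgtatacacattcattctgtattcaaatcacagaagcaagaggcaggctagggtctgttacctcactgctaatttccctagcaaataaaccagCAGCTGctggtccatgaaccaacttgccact
The motif began 112 bases before the start in Muc2, 208 in Fcgbp and 31 in Hepacam2. Also searched on both strands were TGTTTAC, a forkhead motif, in 0 of the 3 and 1 of the 12 genes, ACGTG in 0 and 3, and TATAAA in 1 and 2. Those 3 motifs were in 3.17%, 16.6% and 12.4% of all windows. A match gives the letters only, and binding was not measured.

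The libraries held 11749028 to 41281731 UMIs, and the goblet cells of a library summed to 315499 (sham 1) up to 1752770 (resection 2). The median goblet cell held 4237 to 6666.5 UMIs, against 4618 to 6282.5 in the remaining cells of the same libraries. Its mitochondrial share was 15.2% in sham 1 and 14.1% in resection 1, and 8.36% to 10.8% in sham 2, sham 3 and resection 2. Sham 1 and resection 1 are called set A and the other three libraries set B below, a split known from earlier results and not from the labels. Pairs of libraries shared 6 to 45 cell barcodes, of which 0 belonged to goblet cells in both.

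The share of goblet cells among all filtered cells did not separate the groups. It was 3.78%, 5.65% and 3.86% in sham 1 to 3 and 2.06% and 4.05% in resection 1 and 2, with exact 95% binomial intervals of 2.81% to 4.97%, 4.94% to 6.42%, 3.18% to 4.64%, 1.63% to 2.56% and 3.61% to 4.54%. Resection 1 lay below the other libraries, and resection 2 lay within the sham range. Resection libraries averaged 3.06% ± 1.41 (SD, n = 2) against 4.43% ± 1.05 (SD, n = 3) in the sham libraries, which is -1.37 points (two-sided exact permutation test over libraries, p = 0.6, where 0.1 is the smallest p that 3 against 2 allows). Without resection 1 the difference was -0.38 points, without sham 2 it was -0.77 and without resection 2 it was -2.37. Paneth cells, taken as cells with Lyz1 and the Defa genes at 10% of UMIs or more, were 17.7% of sham 1 and 4.66% to 7.20% of the other libraries. Among cells that were not Paneth cells the goblet share differed by -1.70 points (exact permutation p = 0.3).

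**Figure D1:**
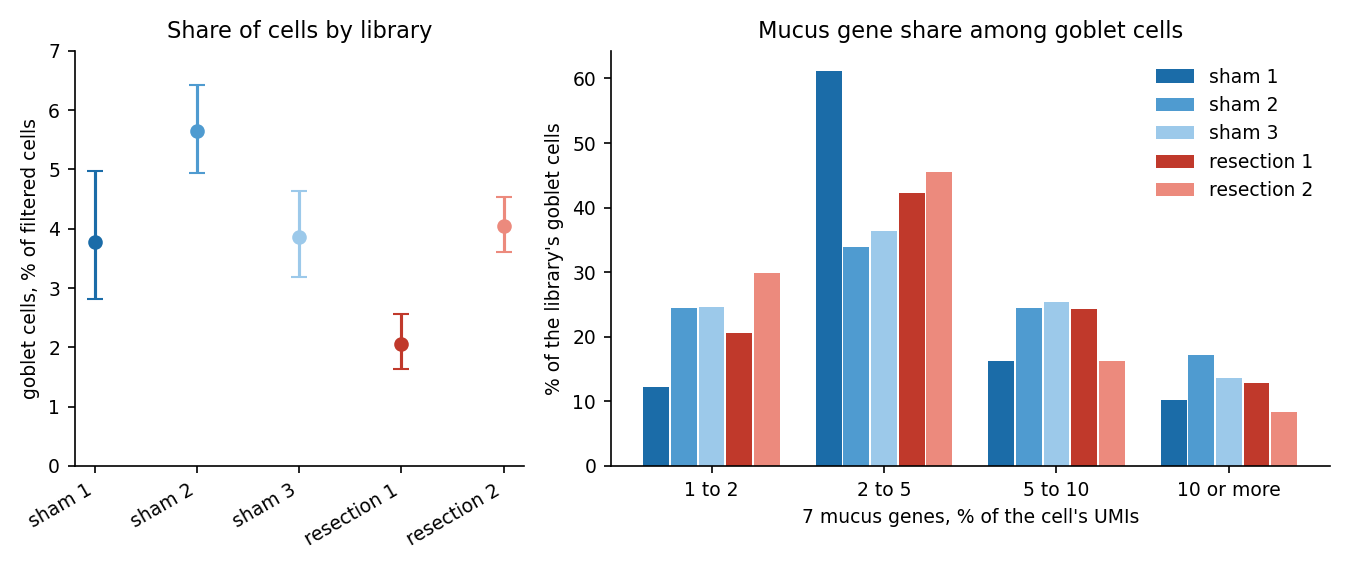
Left, goblet cells as a percent of filtered cells in each library, with exact 95% binomial intervals that cover counting error only. Right, the percent of each library's goblet cells (vertical axis) in 4 ranges of the mucus gene share of a cell's UMIs (horizontal axis). Resection 1 has the lowest share of goblet cells at 2.06%, and sham 1 has 61.2% of its goblet cells in the 2 to 5% range.

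Goblet cells varied widely in how much of their RNA was mucus RNA. The median cell held the 7 genes at 3.83%, 3.94% and 4.05% of its UMIs in sham and at 3.91% and 2.93% in resection, against 0.046% to 0.110% in the remaining cells and 0.702% to 1.02% in Paneth cells. The highest cell reached 48.0%, in sham 3. All 7 genes were detected in 449 goblet cells and only 4 in 20, and 92 cells held them at 10% of UMIs or more. Just inside the threshold, from 1 to 1.25%, lay 56 cells, and 74 otherwise eligible cells lay just outside, from 0.75 to 1%. The rule set aside 446 further cells for their Lyz1 and Defa share and 7 for having fewer than 4 of the genes.

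The genes of the rule chose the cells, so their levels are a description. Positions are from GENCODE M21 on GRCm38, and levels are CPM, the counts of a gene per 1e6 UMIs summed over the goblet cells of a library. The 3′ tags give 1 count per molecule, so the levels are not divided by gene length. Tff3 (ENSMUSG00000024029, chromosome 17, 31125306 to 31129646), which encodes a small peptide that is secreted with the mucin, was the most abundant, with 15642, 20713 and 20056 CPM in sham and 16288 and 15609 in resection. Zg16 (ENSMUSG00000049350, chromosome 7, 127050156 to 127087328), a lectin of the mucus, had 11541, 13049 and 12146 CPM in sham and 10671 and 8244 in resection. Both resection libraries lay below all sham libraries for Zg16, whereas for Tff3 the groups overlapped.

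Fcgbp (ENSMUSG00000047730, chromosome 7, 28071236 to 28120862), a large mucus protein that binds Muc2, had 7886, 7518 and 5264 CPM in sham and 8505 and 4735 in resection. Muc2 itself (ENSMUSG00000025515, chromosome 7, 141690340 to 141754693) had 1499, 1659 and 1089 CPM in sham and 1977 and 1089 in resection. For both genes resection 1 was the highest library, and resection 2 was the lowest for Fcgbp and level with sham 3 for Muc2, so the groups overlapped. Clca1 (ENSMUSG00000028255, chromosome 3, 145003817 to 145032776), a protease of the mucus, had 1005, 1143 and 1159 CPM in sham and 937 and 802 in resection, with both resection libraries below the sham libraries. Agr2 (ENSMUSG00000020581, chromosome 12, 35992907 to 36004087), an endoplasmic reticulum protein needed for Muc2 production, spread most between libraries, with 1011, 1724 and 3345 CPM in sham and 565 and 1654 in resection. Within each set the resection library was below the sham libraries of that set, and the lowest levels were those of sham 1 and resection 1.

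Spink4 (ENSMUSG00000028415, chromosome 4, 40920052 to 40931395), a secreted peptide of goblet cells, was not limited to goblet cells. It had 8070, 5750 and 4897 CPM in the goblet cells of sham and 5383 and 3456 in those of resection, but 5656 to 8767 CPM in Paneth cells. Its level in goblet cells was 0.60 to 0.92 times that in Paneth cells and 2.00 to 8.60 times that in all non-goblet cells. For the other 6 genes the level in goblet cells was above that in Paneth cells in every library, from 2.04 to 7.03 times for Agr2 up to 14.1 to 96.9 times for Fcgbp. Of the mucus UMIs, 33.5% to 43.9% were Tff3 and 23.2% to 25.3% were Zg16, while Muc2 was 2.27% to 4.46%.

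**Figure D2:**
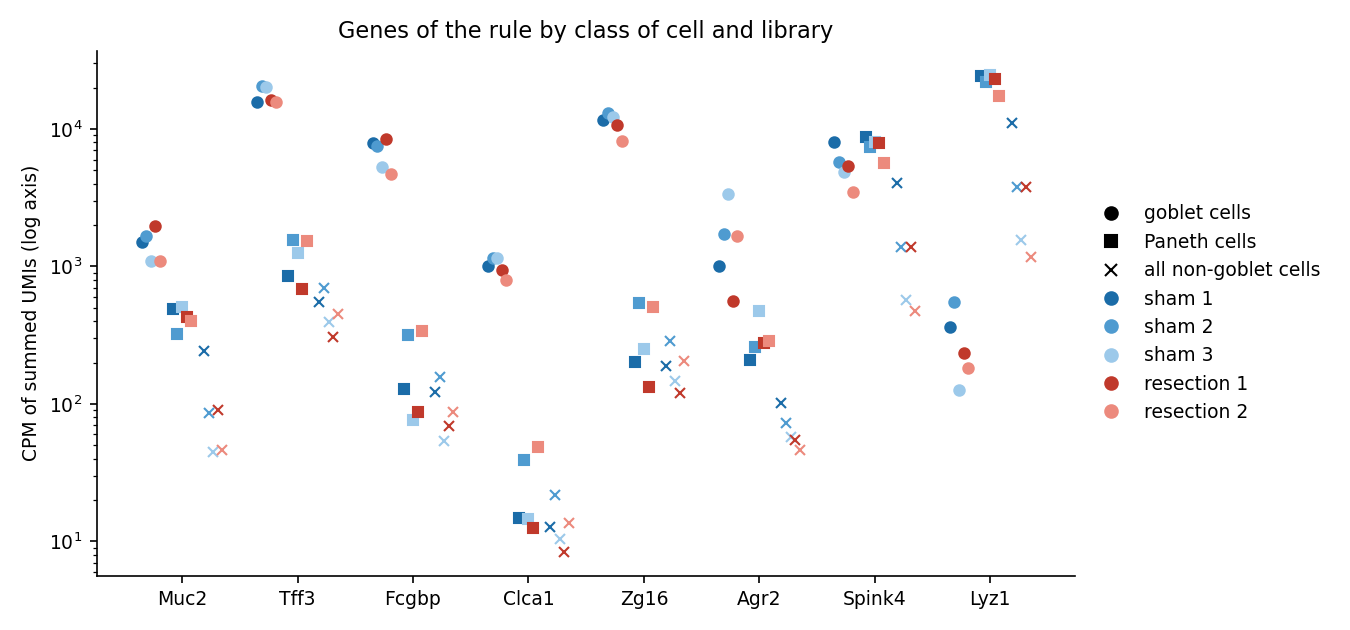
Level of the 7 mucus genes and Lyz1 in goblet cells (circles), Paneth cells (squares) and all non-goblet cells (crosses), as CPM of summed UMIs on a log axis, 1 point per library. Spink4 is as high in Paneth cells as in goblet cells, and Lyz1 in goblet cells is 126 to 549 CPM against 17259 to 24874 in Paneth cells.

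Genes outside the rule were ranked by their level in goblet cells relative to the other cells. The cells were not chosen on these genes, but they come from the same cells and libraries, and no test was run. The genes below head a list of 15 ranked by the lowest ratio, over the 5 libraries, of CPM in goblet cells to CPM in all other cells. Klk1, a kallikrein protease, had 133, 131 and 111 CPM in sham and 81.0 and 70.7 in resection, 15.8 to 23.6 times its level in the other cells. Hepacam2, an adhesion protein found in secretory cells, had 177, 73.8 and 96.4 CPM in sham and 120 and 64.5 in resection, 12.3 to 42.8 times the other cells. Atp2a3, a calcium pump of the endoplasmic reticulum, had 184, 50.6 and 56.3 CPM in sham and 79.3 and 34.2 in resection, with ratios of 6.40 to 12.0.

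Txndc5, a disulfide isomerase, was 4.78 to 7.15 times higher in goblet cells than in the others, and S100a6, a calcium-binding protein, 4.15 to 7.50 times. S100a6 also differed most from Paneth cells, at 9.84 to 68.1 times their level. The goblet transcription factor Foxa3 had 76.1, 42.5 and 53.8 CPM in sham and 47.3 and 40.5 in resection, 4.0 to 16.5 times the other cells. The remaining genes of the ranking were Selm, Smim6, Wars, Stard10, Krt18, Fxyd3, S100a13, Qsox1 and Gm26917, with lowest ratios from 3.52 for Selm down to 2.22 for Gm26917. Qsox1, which forms disulfide bonds in secreted proteins, was 0.72 to 1.34 times its Paneth cell level.

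Spdef was detected at 22.2, 26.5 and 30 CPM in the goblet cells of sham and 27 and 35.4 in those of resection, in ranges that overlap. Atoh1 had 31.7, 16.9 and 21.3 CPM in sham and 25.3 and 15.4 in resection, again with overlap. Both genes are low, so single libraries rest on few molecules.

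Within the goblet cells of sham 2 and resection 2, which held the most cells, Klk1 and Hepacam2 were higher where the mucus share was higher. From cells with 1 to 2% mucus UMIs to cells with 10% or more, through the 2 to 5% and 5 to 10% ranges, Klk1 was at 57.2, 91.7, 174 and 341 CPM in sham 2. In resection 2 it was at 19.4, 59.7, 131 and 373 CPM. Hepacam2 went from 21.1 to 263 CPM in sham 2 and from 12.9 to 363 CPM in resection 2 between the outer ranges. The top range held 5 cells in sham 1, 10 in resection 1 and 15 in sham 3, fewer than are needed to read a trend there. In the top range 0%, 18.4%, 20%, 0% and 12.5% of cells (sham 1 to 3, resection 1 and 2) had at least 2 cell cycle genes, against 50%, 29.6%, 51.9%, 50% and 38.4% in the lowest range. In sham 2 the middle ranges had 38.7% and 13.0% and in resection 2 they had 32.8% and 17.0%, so the share did not fall at each step in sham 2. The middle ranges had 40% and 12.5% in sham 1, 60% and 42.9% in sham 3 and 36.4% and 47.4% in resection 1. In sham 3 and resection 1 the share did not fall at each step either. The lowest range held only 6 cells in sham 1 and 16 in resection 1. No test was run on these ranges.

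The goblet label was checked against goblet products outside the rule and against markers of other cell types. The 39 goblet products summed to 6374, 6895 and 6836 CPM in the goblet cells of sham and 5771 and 6222 in those of resection, which was 0.46, 0.91, 1.18, 0.76 and 1.11 times the sum in all non-goblet cells. As a sum they were therefore not above the other cells in 3 of 5 libraries. Paneth cells, which are among those other cells, held 17661 to 24795 CPM of this list, much of it Itln1 (10137 to 17960 CPM) and Ang4. The 17 Paneth genes include Lyz1 and Defa genes that the rule limited, so their lower sum in goblet cells (3910 to 17882 CPM, against 334066 to 428223 in Paneth cells) was fixed in part by the rule. Among Paneth genes the rule did not use, Mmp7, a Paneth protease, had 33.8 to 78.8 CPM against 1097 to 1533, and Ang4, a Paneth antimicrobial, 41.2 to 132 CPM against 3511 to 5266. Enteroendocrine genes (20) summed to 109 to 220 CPM, with Sct at 68.8 to 137 and Chga at 18.6 to 35.4, and tuft cell genes (16) to 24.5 to 145 CPM. Both sums were low but above those in all non-goblet cells in every library. The ratios were 1.35 to 2.38 for enteroendocrine genes and 1.17 to 11.1 for tuft cell genes, the highest in sham 3. B and plasma cell genes summed to at most 6.34 CPM and myeloid and stromal genes to at most 3.75 CPM.

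Genes of absorptive enterocytes were a large part of the goblet cells' RNA. The 66 enterocyte genes were 4.21%, 6.14% and 2.13% of the median goblet cell's UMIs in sham and 6.68% and 9.30% in resection, so both resection libraries were above the sham libraries. The remaining non-Paneth cells held 6.62%, 8.19% and 7.39% in sham and 9.83% and 11% in resection. Paneth cells, which hold more UMIs (median 6169 to 19269), had 0.640%, 1.3% and 0.799% in sham and 0.624% and 2.42% in resection. The difference in goblet cells was 3.83 points (exact permutation p = 0.2), and it was 2.47 within set A and 5.16 within set B. The enterocyte share was thus higher in goblet cells than in Paneth cells in all 5 libraries and higher in both resection libraries. Its part in the comparisons of genes below was examined only by keeping the 203 goblet cells with at most 3% enterocyte UMIs (17, 41 and 58 in sham, 21 and 66 in resection), a threshold chosen after seeing the data that has 96 cells between 2 and 4%.

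T cell genes moved between libraries as well. At least 3 of the 13 measured T cell genes were detected in 92 goblet cells, or 12.3% of them: 18.4%, 19.5% and 1.82% in sham and 3.85% and 12.2% in resection (difference -5.21 points, exact permutation p = 0.6). Sham 1 and sham 2 were high and sham 3 was the lowest library. The share was 7.46%, 5.01%, 2.30%, 1.08% and 4.80% in all non-goblet cells and 23.1%, 23.4%, 3.01%, 3.28% and 10.6% in Paneth cells, in the same library order, without thinning to a common depth. The summed level of these genes in goblet cells was 1036, 1787 and 108 CPM in sham and 218 and 716 in resection. Muc2 was at 917, 1825, 1071, 2119 and 882 CPM in the goblet cells with T cell genes and at 1618, 1620, 1089, 1971 and 1122 CPM in those without, in the same order, where the sham 3 and resection 1 values with T cell genes rest on 2 and 3 cells. Muc2 is a gene of the rule, so these levels are a description. Whether these are cells captured together was not tested. The doublet score used marked 27 goblet cells, 21 of them in resection 2.

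Goblet cells with cell cycle RNA were found in every library. With each cell thinned to 2000 UMIs, at least 2 of 24 cell cycle genes were detected in 32.7%, 26.7% and 48.2% of goblet cells in sham and 37.2% and 30.2% in resection. Both resection libraries lay within the sham range. Resection libraries averaged 33.7% ± 4.93 (SD, n = 2) against 35.8% ± 11.1 (SD, n = 3) in the sham libraries, which is -2.15 points (exact permutation p = 0.9). Without thinning the shares were 55.1%, 61.1%, 68.2%, 66.7% and 52.1%. Other cells, which include the Paneth cells, had 14.3%, 21.4%, 31.3%, 20.5% and 21.7% after thinning, below the goblet cells of the same library each time. Paneth cells alone, which do not divide, had 1.31% to 10.6%. The summed level of the 24 genes was also higher in goblet cells than in other cells, except in sham 2, at 920 against 946 CPM. Without sham 3 the difference in goblet cells was 4.02 points and without resection 2 it was 1.34, so its sign rests on single libraries.

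Goblet cells with little enterocyte RNA held cell cycle RNA more often than the remaining goblet cells of the same library. Among goblet cells with at most 3% enterocyte UMIs, 52.9%, 46.3% and 70.7% had at least 2 cell cycle genes in sham and 76.2% and 62.1% in resection. Among the remaining goblet cells the shares were 21.9%, 22.2% and 23.1% in sham and 22.8% and 20.7% in resection. The enterocyte-poor cells were higher in 5 of 5 libraries, by 39.5 points on average (exact paired permutation test, p = 0.0625, the smallest that 5 libraries allow). The difference was 45.0 points with a limit of 2%, 34.7 with 4% and 26.1 without thinning, settings chosen after seeing the data.

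Mki67, a gene of dividing cells, had 160, 25.1, 136, 215 and 89.2 CPM in the enterocyte-poor goblet cells of sham 1 to 3 and resection 1 and 2, against 5.09, 21.8, 14.3, 39.1 and 27.7 in the others. The gap was narrow in sham 2 and wide elsewhere. Muc2 was lower in the enterocyte-poor cells of every library, at 1000, 1349, 909, 1101 and 625 CPM against 1802, 1733, 1321, 2295 and 1217. Fcgbp was lower in them too, at 5579, 6267, 4276, 6138 and 3472 CPM against 9283, 7814, 6538, 9367 and 5086. Tff3 and Klk1 did not share this. Tff3 was higher in the enterocyte-poor cells of sham 2 (24347 against 19852 CPM), sham 3 and resection 2. It was lower in those of sham 1 and resection 1, and Klk1 was higher in 4 of 5 libraries. Ccnd2, a cyclin of the G1 phase, was higher in all 5, at 681, 369, 627, 639 and 478 CPM against 168, 118, 86.0, 161 and 155. Median depth was alike in the 2 kinds of goblet cell, at 4439 to 7152 UMIs and 4134 to 6001 UMIs, and these gene levels were not tested. Muc2, Fcgbp and Tff3 are genes of the rule, so their levels are a description. The median mucus share was 4.04%, 4.13%, 3.51%, 2.69% and 2.66% in the enterocyte-poor cells, in the same library order. It was 3.29%, 3.94%, 4.17%, 4.41% and 2.96% in the others.

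**Figure D3:**
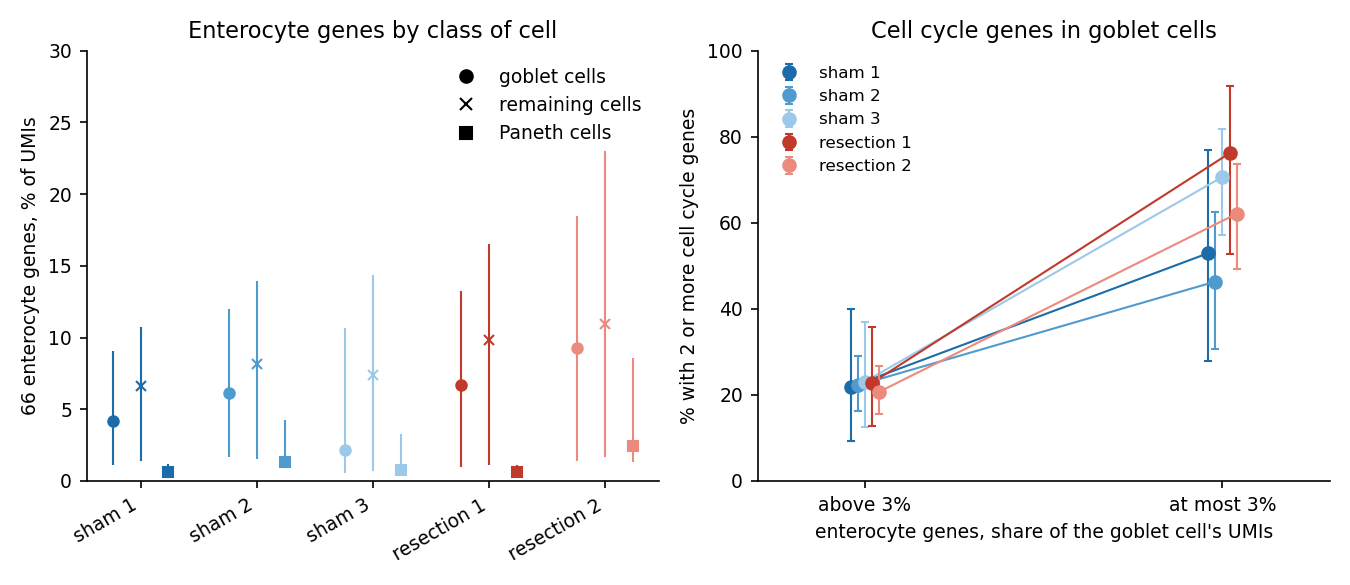
Left, percent of a cell's UMIs from 66 enterocyte genes in goblet cells (circles), remaining cells (crosses) and Paneth cells (squares) of each library, as median with the 10th to 90th percentile of cells. Right, percent of goblet cells with at least 2 cell cycle genes after thinning, by enterocyte share, with exact 95% intervals, 1 line per library. All 5 lines rise from 20.7% to 23.1% above the 3% limit to 46.3% to 76.2% at or below it.

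The comparison of resection with sham inside goblet cells asked which genes differed between the operations in this cell type. With an adjusted p threshold of 0.05, edgeR's quasi-likelihood test on the summed counts called 0 of 6965 genes (0%). At an unadjusted p below 0.05, 195 genes differed (2.8%), of which 134 were higher after resection (1.92%) and 61 lower (0.876%). Both resection libraries lay above all sham libraries for 574 genes (8.24%) and below all of them for 413 (5.93%). DESeq2 called 6 genes (0.0861%), all higher after resection: Fabp1, Apoc3, Cyp3a11, Ephx2, Slc2a2 and Lct. The median log2 fold change of all genes tested was -0.01, and adjusted p-values below are from edgeR unless DESeq2 is named.

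The genes with the lowest p in goblet cells were enterocyte genes that are strongest in the proximal bowel. Fabp1 (ENSMUSG00000054422), a fatty acid binding protein, had 139, 315 and 377 CPM in the goblet cells of sham and 3005 and 1821 in those of resection. Every resection value was above every sham value, with a log2 fold change of 3.05 ± 0.50 (SE; edgeR adjusted p = 0.174, DESeq2 adjusted p = 7.36e-07). In the other cells the log2 fold change was 2.87, and in the enterocyte-poor goblet cells it was 1.26. Cyp3a11, a drug-metabolising cytochrome, had 0, 3.21 and 0 CPM in sham and 37.1 and 54.2 in resection, again without overlap. Its fitted fold change of 4.69 ± 0.66 (edgeR adjusted p = 0.131) depends on the prior count, since 2 sham libraries hold none of its molecules, and was 8.36 without sham 2. Without resection 1 its edgeR adjusted p was 0.0108, from a fit in which resection 2 is the single resection library and the spread comes from the sham libraries alone.

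Slc2a2, the glucose transporter of the basolateral membrane, had 9.51, 7.22 and 1.252 CPM in sham and 57.4 and 41.1 in resection (log2 fold change 3.06 ± 0.50, edgeR adjusted p = 0.174). Apoa4, an apolipoprotein of chylomicrons, had 434, 990 and 114 CPM in sham and 8342 and 3308 in resection (3.40 ± 0.75, adjusted p = 0.482). Lct, the lactase gene, had 108, 46.6 and 16.3 CPM in sham and 429 and 196 in resection (2.55 ± 0.57, adjusted p = 0.482). For these 3 genes, as for Apoc3, Ephx2 and Bst1, the resection libraries lay above all sham libraries, and the log2 fold change in the other cells was 4.10 for Slc2a2, 3.34 for Apoa4 and 3.03 for Lct. The log2 difference between goblet and other cells in these changes was -0.88 ± 0.50 for Slc2a2, 0.29 ± 0.32 for Apoa4 and -0.35 ± 0.23 for Lct (edgeR adjusted p = 0.9999 for each). In the enterocyte-poor goblet cells the log2 fold change was 2.94 for Apoa4. For Apoc3 it was 1.65 there, beside 2.57 in all goblet cells. Slc2a2, Lct, Ephx2 and Bst1 were not tested in the enterocyte-poor cells. Ephx2, an epoxide hydrolase, had a log2 fold change of 2.42 ± 0.44 (adjusted p = 0.257) and Bst1 one of 1.79 ± 0.34 (adjusted p = 0.278). Treh, Fbln1, Ada and Susd2 followed, with log2 fold changes of 1.67, 1.77, 1.95 and 1.86.

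Of the 24 proximal enterocyte genes 22 were tested in goblet cells, with 18 positive and 4 negative log2 fold changes and a median of 0.86. Both resection libraries were above the sham libraries for 15 (beside 8.24% of all genes tested) and below them for 1 (beside 5.93%), Ces1f, a carboxylesterase (-1.40 ± 0.44). The median of the same genes in the other cells was 0.85, and in the enterocyte-poor goblet cells, where 12 could be tested, 0.35. General enterocyte genes had a median of 0.55 (22 tested, 20 positive) in all goblet cells and of -0.00042 (17 tested) in the enterocyte-poor ones. Distal enterocyte genes had 10 positive and 6 negative values and a median of 0.28, which was -0.20 in the enterocyte-poor goblet cells. The 3% limit is on the summed share of genes from these same lists. The 3 medians in the enterocyte-poor cells were therefore fixed in part by that limit and do not show where the change lies. Fewer genes passed the count filter in the enterocyte-poor cells, so these medians are not over the same genes. Single libraries moved the medians in all goblet cells: without sham 1 the proximal median was 0.57, and without sham 3 the general median was 0.25 and the distal one 0.063, while the general median was 0.85 without sham 2.

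Of the 16 distal genes tested, 5 had both resection libraries above the sham libraries, beside 8.24% of all genes tested. For 2 both were below, beside 5.93%, and 0 passed the adjusted threshold of edgeR. Fabp6, which carries bile acids inside ileal enterocytes, was at 15392, 15895 and 17320 CPM in the goblet cells of sham and at 3170 and 12132 CPM in those of resection (-1.02 ± 0.58). Fgf15, the hormone that signals bile acid uptake, had 12.7, 13.6 and 6.26 CPM in sham and 48.9 and 30.2 in resection (1.76 ± 0.42, adjusted p = 0.593). Neither gene's groups overlapped, and Fabp6 was lowest in resection 1. Cubn, the ileal receptor for vitamin B12 with intrinsic factor, was higher in both resection libraries (1.3 ± 0.44).

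**Figure D4:**
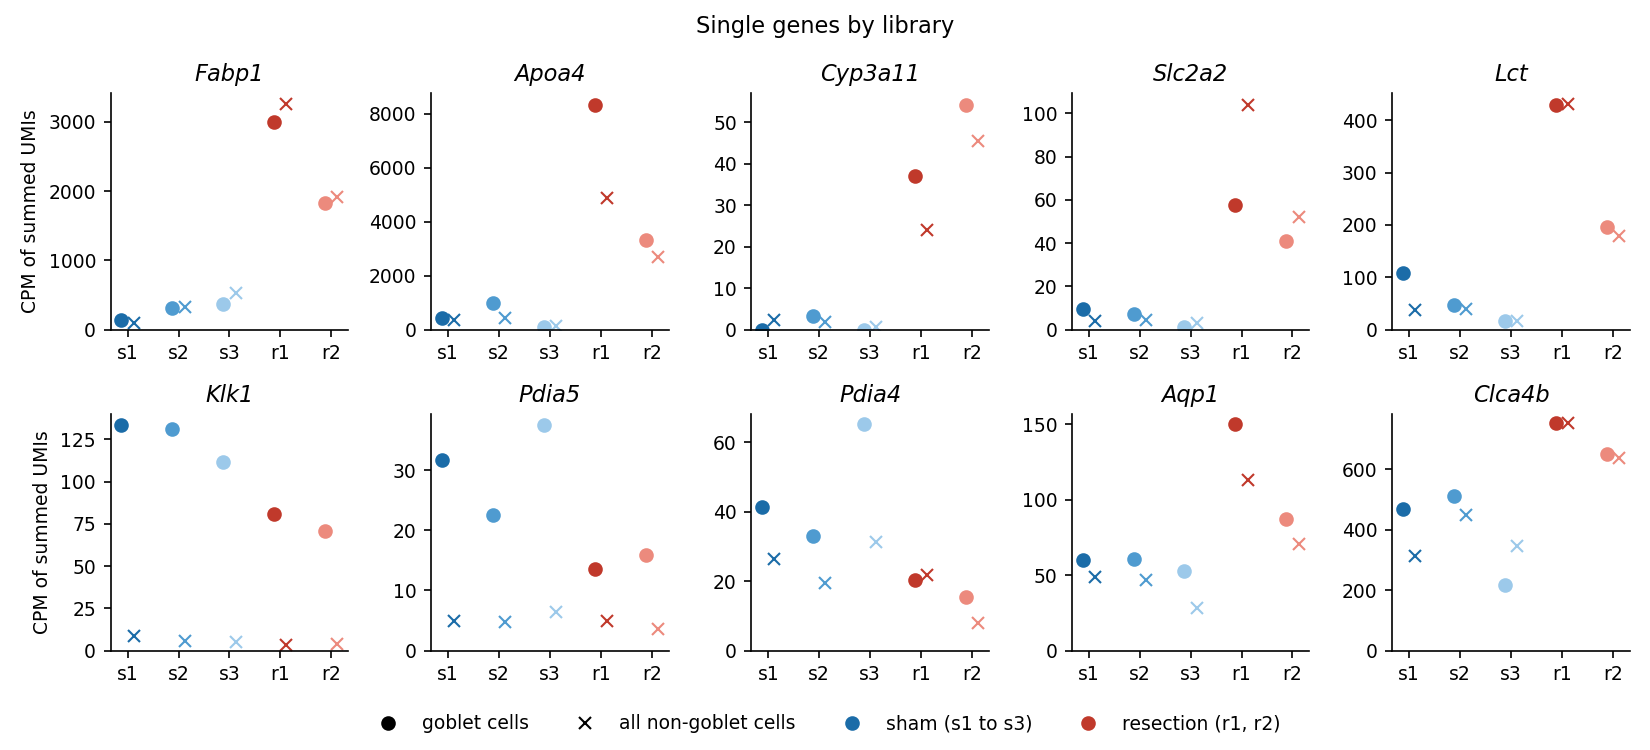
CPM of summed UMIs for 10 genes in the goblet cells (circles) and all non-goblet cells (crosses) of each library, s1 to s3 for sham and r1 and r2 for resection, each panel with its own linear axis from 0. Fabp1, Apoa4, Cyp3a11, Slc2a2 and Lct are higher in both resection libraries in both kinds of cell, and Klk1 is mainly in goblet cells.

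Goblet products outside the rule leaned lower after resection, with 0 past the adjusted threshold. Of 39 listed genes 27 were tested, with 20 negative and 7 positive values and a median log2 fold change of -0.36. In the other cells their median was -0.54, and in enterocyte-poor goblet cells -0.41 (21 tested). For 7 of the 27 both resection libraries lay below all sham libraries (Pdia5, Nupr1, Pla2g10, Tpsg1, Klk1, Ccl9 and Bcas1), beside 5.93% of all genes tested, and for 0 above. Pdia5, a disulfide isomerase, had 31.7, 22.5 and 37.5 CPM in sham and 13.5 and 16 in resection (-0.97 ± 0.38, adjusted p = 0.9999). Klk1, whose levels stand with the leading genes, had a log2 fold change of -0.73 ± 0.33 (adjusted p = 0.9999), and Tpsg1, a tryptase, one of -0.75 ± 0.34. Nupr1, a stress-response gene that was 504 to 989 CPM in Paneth cells, had 57.0, 50.6 and 40.1 CPM in the goblet cells of sham and 21.9 and 29.1 in those of resection.

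Not all goblet products followed. Itln1, intelectin, had 441, 380 and 93.9 CPM in sham and 300 and 125 in resection, and Guca2a, guanylin, 2913, 3899 and 4284 CPM against 2324 and 3732. Both overlapped between groups. Ang4 had 41.2, 132 and 53.8 CPM in sham and 48.9 and 49.1 in resection. Its log2 fold change of -0.74 rests on sham 2, without which it was 0.10.

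Transcription factors of the secretory lineage mostly overlapped between the groups, as did most genes tested. Of 20 listed, 15 were tested, with 11 negative and 4 positive values and a median of -0.12, which was 0.020 without resection 2. Xbp1, a driver of secretory capacity, was the 1 gene of 15 whose groups did not overlap, with 117, 106 and 145 CPM in sham and 96.2 and 97.0 in resection (-0.34 ± 0.33). That count of 1 lower and 0 higher stands beside 5.93% lower and 8.24% higher among all genes tested, so it is near the background. Hes1, the Notch target that represses Atoh1, had 143, 67.4 and 83.9 CPM in sham and 70.9 and 35.9 in resection (-0.87 ± 0.39, adjusted p = 0.9999; -0.51 without resection 2). Spdef had 0.25 ± 0.35, Foxa3 -0.33 ± 0.33 and Atoh1 -0.17 ± 0.39. Klf4, a factor of goblet cells and of differentiated enterocytes, was 0.53 ± 0.39 in all goblet cells (0.31 without sham 3, 0.91 without sham 2) and -0.34 in the enterocyte-poor ones.

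Genes of protein folding in the endoplasmic reticulum were mostly on the low side after resection, as in the other cells. Of 37 genes 35 were tested, 29 negative and 6 positive, with a median of -0.36 in goblet cells and -0.33 in the other cells. For 5 genes both resection libraries were below the sham libraries (Pdia4, Hspa5, Ssr2, Calr and Ppib), or 5 of 35, beside 5.93% of all genes tested. Pdia4, a disulfide isomerase, had 41.2, 32.9 and 65.1 CPM in sham and 20.3 and 15.4 in resection (-1.41 ± 0.39, adjusted p = 0.9999). Hspa5, the main chaperone of the compartment, had 773, 507 and 836 CPM in sham and 446 and 389 in resection (-0.74 ± 0.38). Sec24d, a coat protein of secretory vesicles, was 0.73 ± 0.36, and 0.24 without resection 1 but 1.14 without resection 2. The median of these genes was -0.23 without sham 3, -0.091 within set A and -0.31 within set B.

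Glycosylation genes differed little between the operations. Of 38 genes 29 were tested, 21 negative and 8 positive, with a median of -0.16 in goblet cells and -0.23 in the other cells, beside -0.01 for all genes tested. Without single libraries the median ran from -0.25 (sham 2 left out) to -0.080 (sham 1 left out). Galnt4, which starts O-linked chains, had 53.9, 43.3 and 47.6 CPM in sham and 37.1 and 31.4 in resection (-0.49 ± 0.32). Fut8, a fucosyltransferase that acts on N-linked chains, had 41.2, 38.5 and 33.8 CPM in sham and 28.7 and 24 in resection (-0.54 ± 0.33). These 2 were the genes with both resection libraries below the sham libraries, and Uap1, of sugar nucleotide synthesis, was the one above. These counts, 2 and 1 of 29, stand beside 5.93% lower and 8.24% higher among all genes tested, so they are near the background.

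Anion and fluid transport genes leaned the other way. Of 18 genes 14 were tested, 11 positive and 3 negative, with a median of 0.25 in both goblet cells and the other cells. Aqp1, a water channel, had 60.2, 61.0 and 52.6 CPM in sham and 150 and 87.3 in resection (0.98 ± 0.34, adjusted p = 0.9999), but -0.034 in the enterocyte-poor goblet cells. Clca4b had 469, 513 and 218 CPM in sham and 755 and 651 in resection (0.80 ± 0.44), and 0.47 without sham 3. Cftr, the chloride and bicarbonate channel, had 38.0, 35.3 and 30 CPM in sham and 60.8 and 39.9 in resection (0.50 ± 0.33). These 3 genes were the ones, of 14, whose resection libraries lay above all sham libraries, beside 8.24% of all genes tested.

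**Figure D5:**
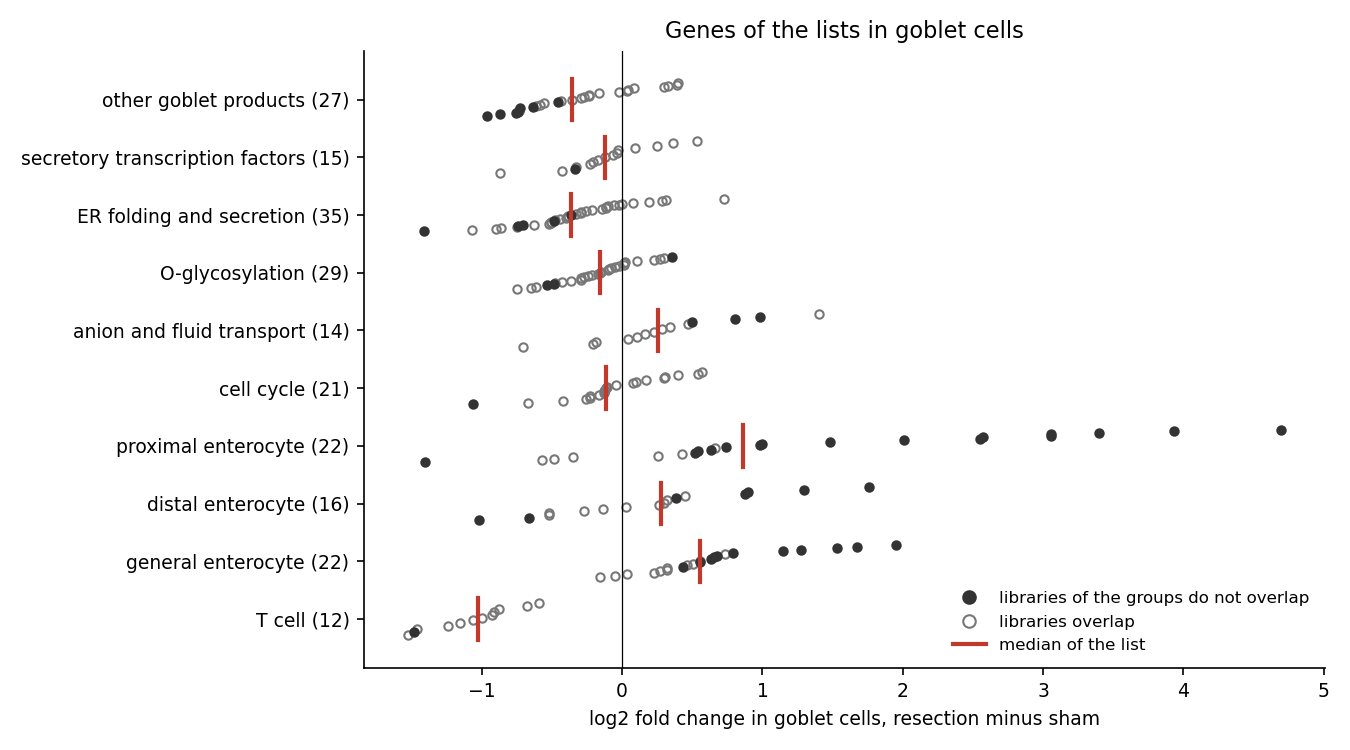
Log2 fold change, resection minus sham, of the tested genes of 10 lists in goblet cells (horizontal axis), 1 point per gene, filled where the libraries of the 2 groups do not overlap, with the median of each list as a red line and the number of genes in brackets. The proximal enterocyte median lies at 0.86, those of goblet products and of endoplasmic reticulum folding at -0.36.

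Other lists were small or rested on single libraries. Epithelial stress and sentinel genes (13 of 14 tested) had a median of -0.35, and Areg, a growth factor of the EGF family, had 336, 229 and 178 CPM in sham and 115 and 171 in resection. Its log2 fold change of -0.72 ± 0.40 was -0.38 without resection 1, -1.19 without resection 2 and 0.15 in the enterocyte-poor goblet cells. Cell cycle genes (21 of 24) had a median of -0.11, which was 0.67 without sham 3, and Mcm5, of DNA replication, had -1.06 ± 0.53. Paneth genes (12 of 17) had a median of -0.62, which was 0.31 without sham 2 and -1.04 without sham 3, beside -1.34 in the other cells, where the Paneth cells themselves are counted. This list holds Lyz1 and Defa genes, which the rule limited in goblet cells, so its median is a description.

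T cell genes (12 tested of 13 measured) had 12 negative values and a median of -1.03, which was -2.80 without resection 2 and 0.18 without sham 2. Cd52, a lymphocyte surface peptide, had 38.0, 32.1 and 18.8 CPM in sham and 1.69 and 14.3 in resection (-1.49 ± 0.58; -4.08 without resection 2 and -0.91 without resection 1). MHC class II genes (5 of 7) had a median of -1.06, and H2-Aa had 69.7, 40.9 and 1.252 CPM in sham and 10.1 and 15.4 in resection. Sham 3 was the lowest library for H2-Aa, and its log2 fold change of -1.27 was -1.92 without sham 3 and 0.57 within set B.

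Whether the difference between operations was another in goblet cells than in the other cells of the same libraries was tested directly, by an interaction term with the library as a block. It called 0 of 6965 genes (0%), and 157 had an unadjusted p below 0.05 (2.25%). DESeq2 called 0. Krt7, a keratin of simple epithelia, had the lowest p, with a log2 difference of 0.77 ± 0.17 by edgeR (unadjusted p = 0.000475, adjusted p = 0.9999). Its level was 162, 112 and 198 CPM in the goblet cells of sham and 89.5 and 123 in those of resection, against 64.8, 70.1 and 119 CPM in the other cells of sham and 34.5 and 43.8 in those of resection. The levels in goblet cells overlapped between the groups, and those in the other cells did not.

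Also more positive in goblet cells were Pdcd6 (0.49 ± 0.16), Atg101 (0.64 ± 0.21) and Nfkbia (0.55 ± 0.19; 0.33 without sham 3), the inhibitor of NF-kB. Ccl20, a chemokine that was 613 CPM in sham 3 and 3.38 to 110 CPM in the goblet cells of the other libraries, had 0.94 ± 0.26, which turned to -0.79 without resection 2. More negative were Zfp36l2 (-0.60 ± 0.21; -0.95 without resection 2), Cdk16 (-0.58 ± 0.22), Lamtor1 (-0.50 ± 0.21; -0.75 without resection 2), Itgb1 (-0.47 ± 0.20) and AW112010 (-0.45 ± 0.19; -0.27 without sham 2). The adjusted p of each was 0.9999. Fabp1 had an interaction of 0.14 ± 0.18, smaller than its standard error.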

How the data were processed

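The authors deposited whole-number UMI counts, not normalized, for 27998 genes in a matrix for each of 5 libraries. The libraries were 10x Genomics 3′ libraries per the labels' protocols. The Cell Ranger version is uncertain in the labels. The submitters' processing notes name the builds GRCm38 and mm10. For the 65 rows that repeat a symbol, the row with the lowest identifier was used. Counts were summed per library over goblet cells and over all other filtered cells (Python 3.11.15, numpy 2.4.6) and tested with edgeR 4.0.16 in R 4.3.3 (TMM, filterByExpr, quasi-likelihood F-test, Benjamini-Hochberg adjustment over all 6965 genes, threshold 0.05). DESeq2 1.42.0 was an alternative. CPM is counts per 1e6 UMIs of the summed cells. Within-set log2 values use a prior count of 2. Doublet scores came from the scrublet approach in scanpy 1.11.5 and removed cells only in an alternative, at 0.8% per 1000 cells. Intervals and sums cover counting error only. The scripts' tests were checked on simulated counts with the same spread for every gene. The comparison of operations recovered 93 of 100 changes of 4-fold and 34 of 100 of 2-fold, with 11 false calls. The interaction recovered 85 and 12 of 100, with 3 false calls. The simulated spread was a fixed setting and was not taken from these data. In the data themselves edgeR did not call Fabp1 (log2 fold change 3.05, adjusted p = 0.174) or Apoa4 (3.40, adjusted p = 0.482). Calls of 0 genes therefore leave room for 2-fold changes and for larger ones.

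The goblet cells, the gene lists and the tests were chosen with earlier results of these data known. Named genes are the genes of the rule and Lyz1, the 10 higher and 10 lower genes of lowest p whose groups did not overlap and whose mean CPM was 50 or more, the 2 genes of lowest p in each list, the 5 of lowest p in each direction of the interaction at that same level, and the 15 leading genes (a few of these are left out of the text). A few list members were named after their values were seen: those counted as not overlapping, Fabp6, Spdef, Atoh1, Foxa3, Itln1, Guca2a and Cftr. Mki67 and Ccnd2 were chosen likewise.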

Additional observations from a re-analysis of the deposited data

How the results depend on the processing

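Several values moved with the processing, and the cause was not tested. The goblet share kept its sign in all 16 alternatives, from -2.37 to -0.38 points when single libraries were left out. The difference in cell cycle share changed sign with mucus genes at least 0.5% (0.40 points), in enterocyte-poor goblet cells (12.5 points, exact permutation p = 0.3), within set A (4.53), and from -6.72 to 4.02 points over libraries left out. With mitochondrial UMIs at most 10%, sham 1 kept 0 goblet cells and resection 1 kept 4, so gene tests and the cell cycle share were not run.

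edgeR called more genes higher than the 0 reported with Lyz1 and Defa below 2% (4 genes) and with no low-count filter (27 higher and 7 lower), and DESeq2 called 6. Leaving out single libraries gave 0 to 1 higher, where without a resection library the lone one is assumed to vary like sham. The interaction gave 8 more positive and 3 more negative genes without the filter, and 0 to 1 negative over libraries left out. With the labels' replicate number as a block, which nothing in the labels ties to shared animals or days, edgeR called 1 gene (Lct, adjusted p = 0.0454), the interaction 23 positive and 8 negative genes (31 in all, 0.445%), Krt7 among them (0.79, adjusted p = 0.0050), and the cell cycle median was 0.72. Deviations from the group means correlated at 0.43 and 0.21 over genes for the 2 same-numbered pairs and at 0.28 for sham 3 with resection 2, which share no number. Deviations within a group cancel out, so these values depend on each other. They cannot decide whether the numbers pair the libraries.

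Of 220 list medians under alternatives, 197 stayed within 1 SD between libraries. Within set A the medians were -0.18 for goblet products, 0.034 for secretory factors, -0.091 for folding, -0.040 for O-glycosylation, 1.36 for proximal enterocyte genes and 0.71 for cell cycle genes. In enterocyte-poor goblet cells they were -0.27 for secretory factors, -0.26 for O-glycosylation, 0.35, -0.20 and -0.00042 for proximal, distal and general enterocyte genes, and -2.98 for 2 T cell genes. The limit that defines those cells acts on the enterocyte genes themselves, so their medians there were fixed in part by it. With mucus genes at least 2%, secretory factors had -0.022 and O-glycosylation -0.088, and without the low-count filter secretory factors had -0.0016. Leaving out libraries moved secretory factors between -0.25 and 0.020, O-glycosylation between -0.25 and -0.080, T cell genes between -2.80 and 0.18 and cell cycle genes between -0.35 and 0.67.

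Of 1195 values for 62 genes, 1159 kept side and direction, 27 passed the threshold and 9 turned sign: in enterocyte-poor cells Klf4 (-0.34), Aqp1 (-0.034) and Areg (0.15), within set A Pcna (0.21), Ang4 (0.37) and the interaction of Ccl20 (-0.36), within set B H2-Aa (0.57), without sham 2 Ang4 (0.096, from -1.03 over single libraries left out), and without resection 2 the interaction of Ccl20 (-0.79, up to 1.04). The enterocyte and T cell settings were chosen after seeing the data. The goblet cells of sham 1, at 315499 UMIs, limit what low genes can show.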

Other observations

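The 4 genes below are from the 10 lower genes named for a low p and for groups that do not overlap, so the lack of overlap was fixed by their choice, and 0 passed the adjusted threshold of edgeR. Car4, a membrane carbonic anhydrase, had 95.1, 176 and 159 CPM in the goblet cells of sham and 50.6 and 63.9 in those of resection (log2 fold change -1.34 ± 0.42, adjusted p = 0.9999). It was -1.08 in the other cells and -0.75 in the enterocyte-poor goblet cells. Cldn4, a claudin of tight junctions, had 120, 51.4 and 57.6 CPM in sham and 32.1 and 28.5 in resection (-1.23 ± 0.39). Gsdmc4, a gasdermin, had 101, 54.6 and 53.8 CPM in sham and 30.4 and 33.1 in resection (-1.03 ± 0.36). Pfn1, profilin, which binds actin, was at 907, 772 and 1071 CPM in sham and at 473 and 457 CPM in resection (-0.97 ± 0.39). In the other cells the log2 fold change was -2.20 for Cldn4, -0.56 for Gsdmc4 and -1.11 for Pfn1. In the enterocyte-poor goblet cells it was -0.15 for Gsdmc4 and -0.92 for Pfn1, and Cldn4 was not tested there.

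Interferon genes had no common direction in goblet cells, with 9 of 14 tested and a median of -0.05. Rsad2, an antiviral enzyme, had 12.7, 0.80 and 3.75 CPM in sham and 15.2 and 20.5 in resection (2.29 ± 0.71, adjusted p = 0.9999), and Bst2, tetherin, had 31.7, 14.4 and 28.8 CPM in sham and 0 and 11.4 in resection (-1.54 ± 0.67, and -0.91 without resection 1). For both genes the groups did not overlap, in opposite directions. Genes of the response to interleukin 13 (6 of 16 tested) had a median of 0.01.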
